A study of Mus musculus with 4 samples.

Results

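The Il2ra locus of LN Treg cells was described from ATAC-seq, an assay in which a transposase cuts open chromatin so that sequenced fragments pile up at accessible DNA. Every called peak that overlapped the Il2ra gene body or the 50 kb on either side (mm10, chr2:11592807-11743193) was taken, and peaks sharing at least 1 bp were merged into regions. This gave 32 regions of the 272233 merged regions in the genome. Il2ra itself spans chr2:11642807-11693193 on the plus strand and has 8 exons, and the window also holds the ends of Rbm17 and Fbh1, the whole of Il15ra, and Gm17490, Gm13260 and Gm37881.

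The cells were RFP+ Foxp3+ CD4+ Treg cells of the lymph nodes (LNs) of female C57BL/6 mice aged 6 to 8 weeks, and 50000 sorted cells entered each library. There were 2 WT and 2 Il2ramut/mut libraries, from 2 mice of each genotype, and the mice of both genotypes carried the Foxp3-RFP reporter (Foxp3 Rfp/Rfp) that was used for sorting. Il2ramut/mut mice have a point mutation in exon 4 of Il2ra that replaces a conserved tyrosine of CD25; it arose in a Ccr2-/- colony and was bred away from that allele, and as a germline allele it is carried by every cell of the mouse and not by Treg cells alone. No stimulation was applied before sorting.

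Il2ra encodes CD25, the alpha chain that gives the IL-2 receptor its high affinity. It pairs with CD122, encoded by Il2rb, and the common gamma chain, encoded by Il2rg, and the receptor signals through JAK1 and JAK3 to STAT5. Treg cells express CD25 constitutively, and IL-2 itself raises Il2ra transcription through STAT5 bound at enhancers upstream of the gene and in its first intron. STAT dimers recognise a palindrome with the letters TTCNNNGAA, in which N is any base.

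The sequences that bear on this feedback are the promoter and the places in the locus where that palindrome lies close to a summit, the position of highest signal in a peak. The first sequence below is the 250 bases before the RefSeq start of Il2ra (mm10, chr2:11642542-11642791, plus strand). It is shown because the promoter had the largest fitted log2 difference between the genotypes among the 14 regions of the window called in all 4 libraries. These 250 bases held none of the 7 words searched. The 300 bp around the mean summit of the promoter region did hold one, CAGGAAG, 131 bp from the summit and past the end of these letters. The second is the 201 bases around the mean summit of the strongest region, in intron 1 and 10.8 kb downstream of the transcription start site (TSS), at chr2:11653469-11653669, with a word of the ETS family (CAGGAAG, here read from the other strand) in capitals. A further ETS word of this region, at chr2:11653468-11653474, is cut by the left edge of these letters and is not in capitals.
Il2ra promoter: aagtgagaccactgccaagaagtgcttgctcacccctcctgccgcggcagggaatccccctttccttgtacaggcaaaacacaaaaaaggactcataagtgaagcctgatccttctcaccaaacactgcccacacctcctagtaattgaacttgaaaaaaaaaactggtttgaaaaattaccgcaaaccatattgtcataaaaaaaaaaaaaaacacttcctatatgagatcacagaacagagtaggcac
Il2ra +10.8 kb: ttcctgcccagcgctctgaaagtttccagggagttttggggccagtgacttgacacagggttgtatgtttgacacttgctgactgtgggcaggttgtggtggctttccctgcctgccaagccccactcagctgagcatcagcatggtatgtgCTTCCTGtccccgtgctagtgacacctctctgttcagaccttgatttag

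STAT words were found in 4 of the 14 regions called in every library, 7 words in all. Each is shown with 10 bases on either side and the word in capitals, on the plus strand of mm10. They lie 16.7 kb upstream of the TSS and 2.67, 8.85 and 12.5 kb downstream of it, the last 3 regions each with 2 words.
chr2:11626084-11626112, 16.7 kb upstream: acccagaaaaTTCTAAGAAttacccacaa
chr2:11645520-11645548, 2.67 kb downstream: gaagccacctTTCTTAGAActgtggaaac
chr2:11645566-11645594, 2.67 kb downstream: tcatttttcaTTCTAGGAAttctgtaatc
chr2:11651541-11651569, 8.85 kb downstream: agatcctgtaTTCTCTGAAtccttctgtt
chr2:11651606-11651634, 8.85 kb downstream: ctgatagcatTTCAAAGAAgtcacagcag
chr2:11655211-11655239, 12.5 kb downstream: tacaacttgcTTCTCAGAAggctctgtct
chr2:11655342-11655370, 12.5 kb downstream: gtctttagttTTCAGAGAAagaggaggaa

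Across the genome, 8.71% of the 38281 regions with a full 300-bp window around the mean summit held a STAT word, as did 8.30% of 32851 RefSeq promoters of the same length. The other words, searched on both strands like the first, stand for factors that act in T cells. The RUNX word TGTGGTT lay in 3 of the 14 regions of the window and in 10.1% of those of the genome. The AP-1 word TGANTCA, which factors induced by antigen receptor signals recognise, lay in 3 regions of the window and in 10.6% of the genome's. The ETS word CAGGAAG was the most frequent in the genome, at 22.6%, and lay in 4 regions of the window. The forkhead word TGTTTAC, of the family of Foxp3, was in 0 regions of the window and in 3.93% of the genome's. The GATA word AGATAAG was in 0 and in 3.32%. The NF-kB word GGANTTTCC was in 0 and in 1.56%. The region 8.85 kb downstream had STAT and AP-1 words, and the one 2.67 kb downstream had STAT, RUNX and AP-1 words within the same 300 bp. A word is a match of letters and says nothing on whether a factor was bound, and a word that is missing from these letters says nothing on it either. The median GC content of the windows was 45.0% in the locus and 51.3% in the genome.

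The fold enrichment, the −log10 p and its percentile were read for each peak from the authors' lists. The fold enrichment compares the reads at the summit with one background level per library, and since the reads were whole numbers they could be recovered from it. The −log10 p rises with those reads, and its percentile among all peaks of the same library places a region without scaling one library to another. The percentile also depends on how many weak peaks the list of a library holds. The libraries had 112569 and 126761 called peaks in WT and 122776 and 142732 in Il2ramut/mut, with background levels of 0.974, 0.979, 1.23 and 1.06 reads and a median of 8 to 10 reads at a summit. The lists give no library totals, so the depth is unknown, and reads are given below as measured and unscaled. The weakest peaks called had 5 or 6 reads, and a region without a peak is one with fewer reads than the caller required.

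The labelled cell type was checked at TSSs. All 7 Treg and CD4 T markers (Foxp3, Il2ra, Ctla4, Ikzf2, Tnfrsf18, Cd4 and Cd3e) had a peak within 1 kb of the TSS in every library, at percentiles of 47.8 to 97.4. The B cell markers Cd79a, Ms4a1 and Pax5 and the NK cell markers Ncr1 and Klrb1c had none in any library. Of the CD8 T cell markers, Cd8a had none and Cd8b1 had a peak in all 4 libraries, at percentiles of 66.2 to 84.5. Of the myeloid markers only Cd14 had a peak, in 1 library of each genotype, and the erythroid marker Hba-a1 had none in any library. The part of other cell types in the results was not tested.

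Of the 32 regions, 14 were called in all 4 libraries, 4 in 3, 6 in 2 and 8 in 1. In the genome 14.1% of the merged regions were called in all 4 libraries and 61.3% in only 1. The window held 9.31 four-library regions per 100 kb, at the 95.8 percentile of 21938 protein-coding genes with the same flanks, whose median was 2.06. The gene body alone held 8 of them, at the 98.4 percentile, where the median gene had 1.

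**Figure D1:**
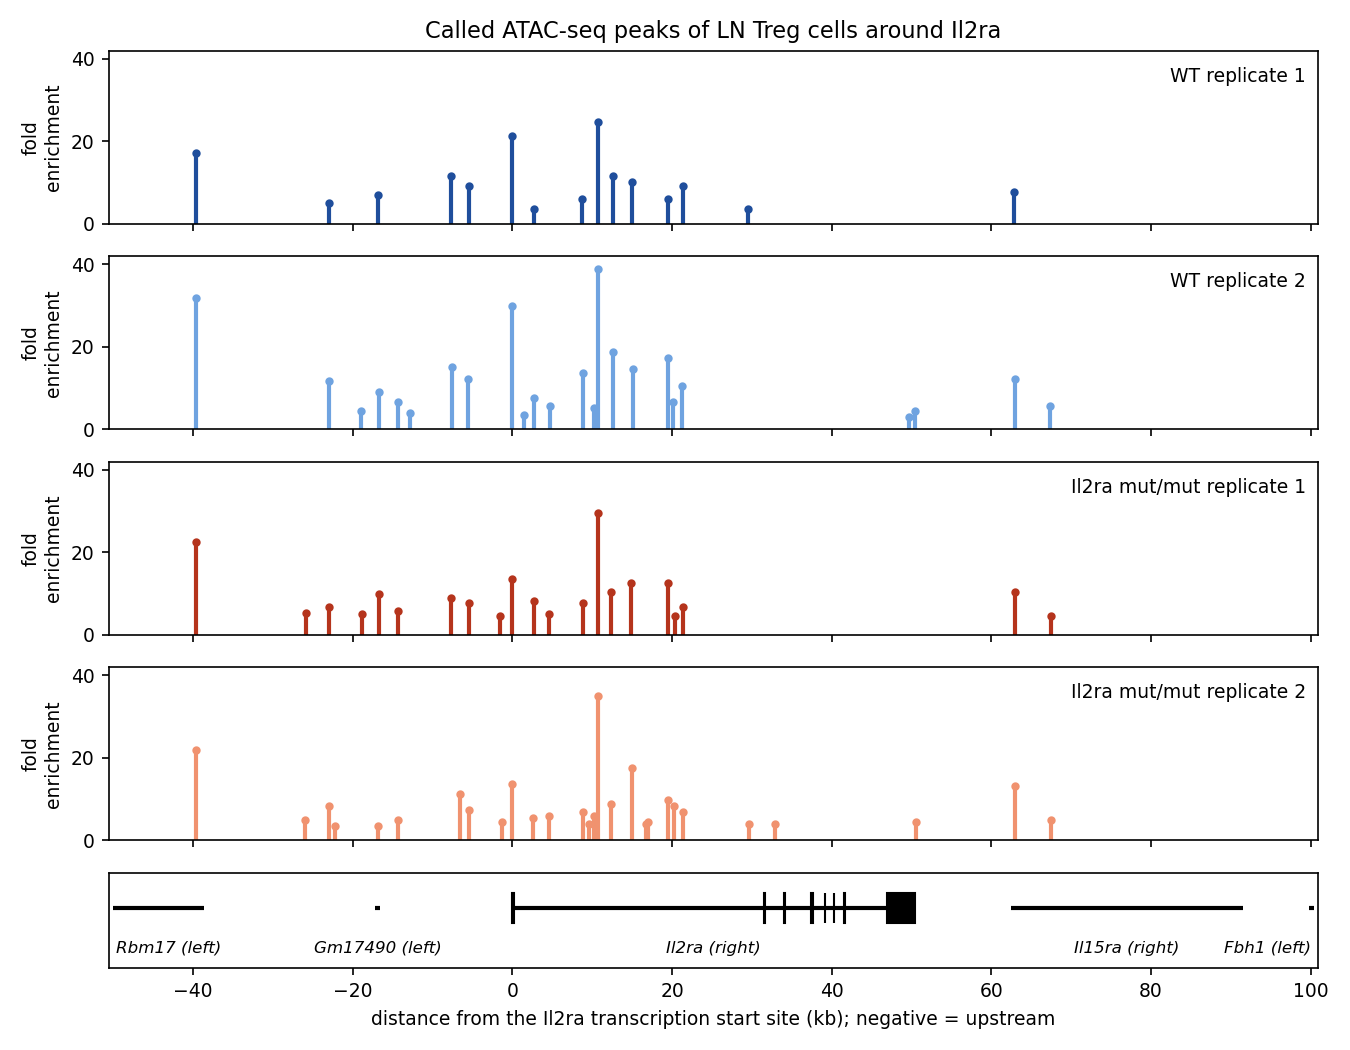
Fold enrichment at the summit (y axis) of the strongest peak of each region against its distance in kb from the Il2ra TSS (x axis), 1 row per library, with genes and the exons of Il2ra below; left and right give the direction of transcription. Peaks lay upstream of the gene, at the promoter and in the first 21.3 kb of the gene in all 4 libraries, and the strongest stood 10.8 kb inside the gene, at 24.8, 38.9, 29.6 and 35.0.

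Accessible regions were concentrated in intron 1, the longest intron of Il2ra at 31.23 kb. Beside the promoter region, which reaches into it, intron 1 held 15 regions, of which 7 were called in every library. Intron 2 held 1 region, called in Il2ramut/mut replicate 2 only, and introns 3 to 7 held none. Exon 4, which carries the mutation and lies 37.4 kb from the TSS (chr2:11680210-11680425), had no called peak in any library, and the nearest peak was 4424 to 15904 bp away. The mutated exon was therefore not among the accessible regions of either genotype at this depth.

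The strongest region of the locus in every library lay 10.8 kb downstream of the TSS (chr2:11653230-11654020). It had 48 and 76 reads at the summit in WT and 65 and 71 in Il2ramut/mut, with fold enrichments of 24.8 and 38.9 against 29.6 and 35.0. The genotypes overlapped, and the 2 WT libraries stood farther apart than the genotypes did. The log2 difference of Il2ramut/mut minus WT, fitted by limma on quantile-normalized log2 fold enrichment, was 0.07 with an SE of 0.15 and a 95% interval of −0.29 to 0.42.

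The promoter region (chr2:11642265-11643330, exon 1 and the start of intron 1) was lower in both Il2ramut/mut libraries than in both WT libraries in reads, fold enrichment and percentile, but the difference did not pass the test adjusted over all regions. It had 41 and 58 reads in WT and 29 and 27 in Il2ramut/mut. The fold enrichment was 21.3 and 29.8 in WT and 13.5 and 13.6 in Il2ramut/mut. The 2 WT libraries differed from each other and the 2 Il2ramut/mut libraries were close together, and the groups did not overlap. The percentile was 94.6 and 95.1 in WT and 89.8 and 91.2 in Il2ramut/mut.

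The fitted log2 difference at the promoter was −0.83 with an SE of 0.17 and a 95% interval of −1.23 to −0.43, a WT level 1.78 times that of Il2ramut/mut. limma gave an unadjusted p of 0.0019 and a Benjamini-Hochberg adjusted p of 0.582 over the 38426 regions called in all 4 libraries. By the size of its difference the promoter stood in the top 1.75% of these regions. The exact permutation test over the libraries gave p = 0.333 (two-sided), the smallest that 2 libraries against 2 allow. When each library was centred on its median in place of quantile normalization, the log2 difference was −0.84 with an SE of 0.22. The adjusted p from limma was 0.0297, and 318 regions of the genome passed under that setting. There limma took the spread of every region from the trend over all regions alone (infinite prior degrees of freedom, 4.52 in the main fit). The spread between the replicates of a single region thus did not enter its p. Over the alternatives that kept all 4 libraries, the adjusted p of the promoter from limma ran from 0.0297 to 0.656.

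**Figure D2:**
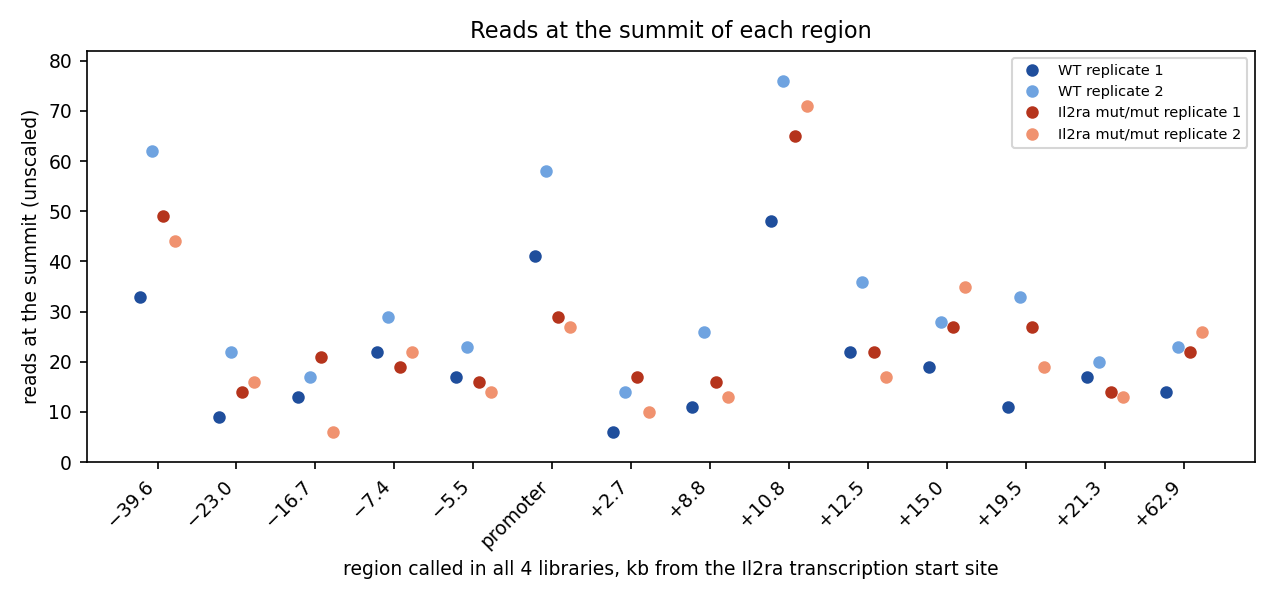
Reads at the summit (y axis, unscaled) of each of the 14 regions called in all 4 libraries, placed from left to right by distance from the Il2ra TSS in kb, with 1 point per library. At the promoter the WT points, 41 and 58, lie above the Il2ramut/mut points, 29 and 27, while at 10.8 kb they overlap.

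No region of the window passed the limma test at an adjusted p of 0.05 in either direction, and in the genome 0% passed with WT higher and 0% with Il2ramut/mut higher. At an unadjusted p under 0.05, 1 of the 14 regions passed, the promoter, where 8.55% of all regions did (3285 of 38426). The 14 log2 differences ran from −0.83 to 0.48, with 8 lower and 6 higher in Il2ramut/mut. Their median was −0.12 and that of all regions 0.0039. The standard errors ran from 0.15 to 0.49, and the 95% interval left out 0 at the promoter alone.

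**Figure D3:**
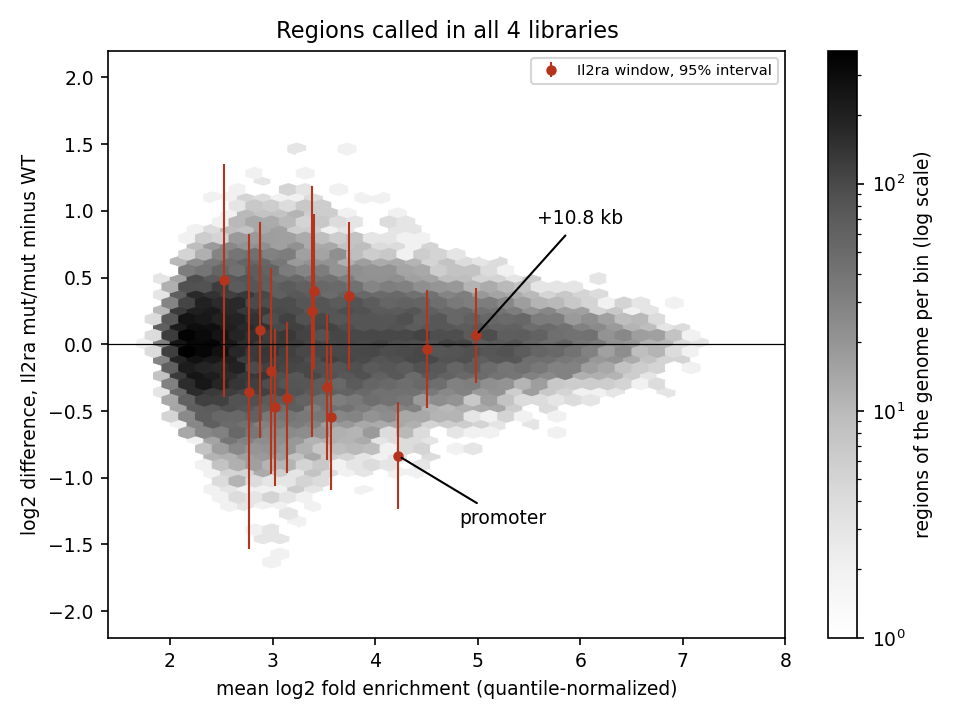
Log2 difference of Il2ramut/mut minus WT (y axis) against the mean log2 fold enrichment (x axis) for the 38426 regions called in all 4 libraries, in grey bins shaded by the number of regions, with the 14 regions of the Il2ra window in red with 95% intervals from limma. The promoter lies at −0.83, at the lower edge of the cloud for its level, and the region at +10.8 kb lies at 0.07.

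Percentiles need no scaling, but they depend on how many peaks a list holds. By percentile, both WT libraries stood above both Il2ramut/mut libraries at 4 of the 14 regions, where 12.6% of all regions did so. Both Il2ramut/mut libraries stood above at 2 of 14, where 26.2% of all regions did so. The exact permutation p was 0.333 at each of these 6 regions. The split changed with the weak end of the lists: when only peaks whose −log10 q was 3 or more were kept, WT stood above at 1 region, the promoter, and Il2ramut/mut at 3. The shares over all regions were computed with all peaks only, so this second split has no background beside it.

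Intron 1 held 3 regions with STAT words, and WT stood above at only 1 of them, 12.5 kb downstream (chr2:11654903-11655780). It had 22 and 36 reads in WT and 22 and 17 in Il2ramut/mut, with percentiles of 88.6 and 91.1 against 86.8 and 86.3. The read counts overlapped at 22, and the percentiles did not overlap. The summits lay at chr2:11655410 and 11655460 in WT and at chr2:11655152 and 11655114 in Il2ramut/mut, up to 346 bp apart. The genotypes were thus compared at different positions of the region, and the window for the motif words was centred between them. The log2 difference was −0.54 with an SE of 0.23, and limma gave an unadjusted p of 0.0507 and an adjusted p of 0.584.

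The STAT-bearing region 8.85 kb downstream (chr2:11651362-11651899) had 11 and 26 reads in WT and 16 and 13 in Il2ramut/mut. The Il2ramut/mut values lay between the WT values, and the log2 difference was −0.20 with an SE of 0.32. The region 2.67 kb downstream (chr2:11644932-11645662) had 6 and 14 reads in WT and 17 and 10 in Il2ramut/mut. Its peak in WT replicate 1 was near the lower limit of calling, at a percentile of 7.92, where the other libraries stood at 78.5, 83.0 and 71.4, and the log2 difference was 0.48 with an SE of 0.36.

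The other regions of intron 1 called in every library went in different directions. At 15.0 kb downstream (chr2:11657352-11658205), RUNX and ETS words lay 42 and 27 bp from the mean summit of the libraries. This region had 19 and 28 reads in WT and 27 and 35 in Il2ramut/mut. The percentiles were 86.7 and 88.6 in WT and 89.1 and 93.3 in Il2ramut/mut, so that Il2ramut/mut stood above by percentile. The reads and fold enrichments of the genotypes overlapped, and the log2 difference was 0.36 with an SE of 0.23. At 21.3 kb downstream (chr2:11663907-11664407) WT stood above, with 17 and 20 reads in WT and 14 and 13 in Il2ramut/mut and a log2 difference of −0.47 with an SE of 0.25. At 19.5 kb downstream (chr2:11662009-11662497) there were 11 and 33 reads in WT and 27 and 19 in Il2ramut/mut, and the genotypes overlapped.

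Upstream of Il2ra, 4 of 10 regions were called in every library. The nearest, 5.46 kb upstream (chr2:11637019-11637635), had 17 and 23 reads in WT and 16 and 14 in Il2ramut/mut. WT stood above by percentile, at 85.1 and 86.3 against 81.9 and 83.3, with a log2 difference of −0.40 and an SE of 0.24. The region 7.39 kb upstream (chr2:11634841-11636531), the broadest of the 14, joined peaks whose summits lay up to 1077 bp apart, and its window for the motif words lay between them. It had 22 and 29 reads in WT and 19 and 22 in Il2ramut/mut, and the genotypes overlapped.

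Farther upstream, the region at 16.7 kb (chr2:11625843-11626435), which lies in Gm17490 and bears a STAT word 29 bp from its mean summit, had the largest standard error of the 14. It had 13 and 17 reads in WT and 21 and 6 in Il2ramut/mut, at percentiles of 80.3, 82.1, 86.2 and 7.34. The lowest and the highest value were both from Il2ramut/mut mice. The log2 difference was −0.35 with an SE of 0.49. Without Il2ramut/mut replicate 2 the log2 difference was 0.42. At 23.0 kb upstream (chr2:11619632-11620043) there were 9 and 22 reads in WT and 14 and 16 in Il2ramut/mut, with the Il2ramut/mut values between the WT values.

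The neighbouring genes bounded the locus with a promoter peak each. The region at the start of Rbm17, which encodes a splicing factor, lay 39.6 kb upstream (chr2:11602810-11603515) and had 33 and 62 reads in WT and 49 and 44 in Il2ramut/mut. The log2 difference there was −0.04 with an SE of 0.18. The promoter region of Il15ra, which encodes the alpha chain of the IL-15 receptor, lay 62.9 kb downstream of the Il2ra TSS (chr2:11705208-11706170) and had 14 and 23 reads in WT and 22 and 26 in Il2ramut/mut. By percentile Il2ramut/mut stood above at Il15ra, at 86.8 and 90.9 against 81.9 and 86.3, with a log2 difference of 0.40 and an SE of 0.24. The reads and fold enrichments of the genotypes overlapped there.

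The balance within the locus can be read without any scaling between libraries, as the share of each region in the summit reads of the 14. These sums were 283 and 467 reads in WT and 358 and 333 in Il2ramut/mut. The promoter took 14.5% and 12.4% in WT and 8.10% and 8.11% in Il2ramut/mut. The region 10.8 kb downstream took 17.0% and 16.3% in WT and 18.2% and 21.3% in Il2ramut/mut. For each of the 2 regions the groups did not overlap. They were not alone in this. WT shares also stood above at 5.46 kb upstream and at 12.5 and 21.3 kb downstream. Il2ramut/mut shares also stood above at 15.0 and 62.9 kb downstream. At 2.67 kb downstream they did so only barely, with 2.120% and 2.998% in WT against 4.749% and 3.003% in Il2ramut/mut. Such shares were not computed for other loci, so no background stands beside them. The shares sum to a constant within a library, so that a lower share of one region raises those of the others.

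**Figure D4:**
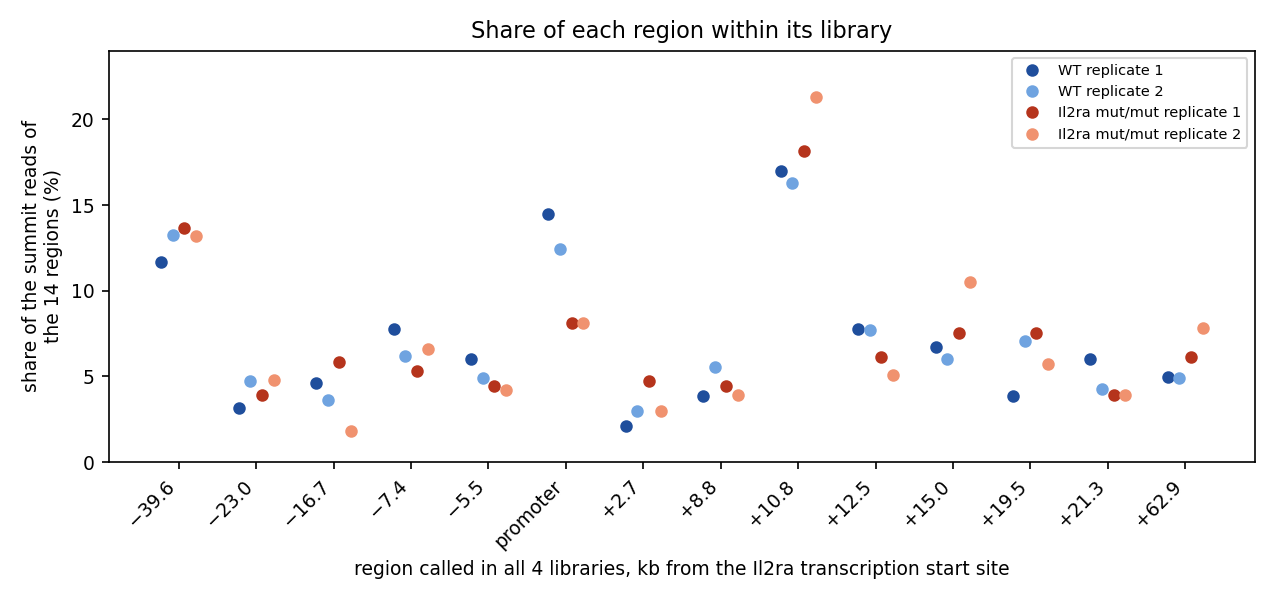
Share of each of the 14 regions in the summed summit reads of those regions in its library (y axis, %), placed by distance from the Il2ra TSS in kb, with 1 point per library. The promoter shares are 14.5% and 12.4% in WT and 8.10% and 8.11% in Il2ramut/mut, and the shares of the region at +10.8 kb are 17.0% and 16.3% against 18.2% and 21.3%.

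Open chromatin regions (OCRs) that were reproducible within a genotype were then called by the irreproducible discovery rate (IDR), at a threshold of 0.05 on the paired ranks of the 2 libraries. In the window 14 regions were called in both WT libraries, of which 11 were reproducible, and 21 in both Il2ramut/mut libraries, of which 13 were. In the genome 45.5% of 55818 such regions were reproducible in WT and 42.1% of 60815 in Il2ramut/mut. This gave 10 common, 1 WT-unique and 2 Il2ramut/mut-unique OCRs. In the genome 71.8% of 29276 OCRs were common, 14.5% WT-unique and 13.7% Il2ramut/mut-unique. The promoter and the regions 10.8 and 12.5 kb downstream were common.

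All 3 unique OCRs of the locus had a called peak in all 4 libraries, so that they were unique by the agreement of replicates and not by the presence of a peak. The WT-unique OCR was the STAT-bearing region 16.7 kb upstream, for which WT had an IDR of 0.00356 and Il2ramut/mut, with 21 and 6 reads, one of 0.534. With a library left out, IDR cannot be run for its genotype. The strongest peaks of the library left, as many as that genotype had OCRs, were then taken in place of its OCRs. By this other definition, without Il2ramut/mut replicate 2 this region was common, and the 1 WT-unique OCR was the region 21.3 kb downstream. The Il2ramut/mut-unique OCRs lay 23.0 kb upstream, where the IDR was 0.436 for WT and 0.00944 for Il2ramut/mut, and 19.5 kb downstream, with 0.109 and 1.5e-04. At both of these the WT libraries had 9 and 22 and 11 and 33 reads, respectively, and without WT replicate 1 there was no Il2ramut/mut-unique OCR in the window. The region 2.67 kb downstream was reproducible in neither genotype.

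Presence of a peak alone separated the genotypes at few regions. Peaks were called in both Il2ramut/mut libraries and in no WT library at 2 of the 32 regions, against 3.56% of all merged regions, and in both WT libraries and no Il2ramut/mut library at 0, against 2.7%. The 2 regions lay 25.9 kb upstream (chr2:11616769-11617162), with 11 and 9 reads, and 1.42 kb upstream (chr2:11641251-11641617), with 9 and 8 reads. These are 3 to 5 reads above the lowest that was called in those libraries. A WT library without a called peak has no value there, so no fold is given.

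The other regions were weak and irregular. The 4 called in 3 libraries lay 14.3 kb upstream and 4.59, 20.2 and 67.4 kb downstream, the last in Il15ra, and all 4 lacked a peak in WT replicate 1, the library with the fewest peaks. The region 20.2 kb downstream had 12 reads in WT replicate 2 and 9 and 16 in Il2ramut/mut. The remaining 4 regions called in 2 libraries had 1 library of each genotype, and lay 18.9 kb upstream and 10.2, 29.5 and 50.5 kb downstream. Of the 8 regions called in 1 library, 3 were from WT replicate 2 and 5 from Il2ramut/mut replicate 2, the library with the most peaks, and they had 5 to 8 reads. In all, 15 and 24 regions had a peak in WT and 21 and 28 in Il2ramut/mut.

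The loci of the receptor and its pathway were counted in the same way, with the gene body and 50 kb on either side. At Il2rb, 13 regions were called in every library, with WT above by percentile at 4 and Il2ramut/mut above at 2. Il2rg, the common gamma chain, had 4, with 0 and 3. The kinase loci Jak1 and Jak3 had 17 and 13 regions, with WT above at 6 and 1 and Il2ramut/mut above at 2 and 1. Stat5a and Stat5b, whose windows overlap, had 17 and 19 regions, with WT above at 3 and 6 and Il2ramut/mut above at 3 and 2. No region of any of these loci passed the limma test.

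Cish, a feedback inhibitor induced by STAT5, had 15 regions, with WT above at 0 and Il2ramut/mut above at 7. The inhibitors Socs1 and Socs3 had 9 regions each, with WT above at 0 in both and Il2ramut/mut above at 2 and 3. Foxp3 had 13 regions, with WT above at 1 and Il2ramut/mut above at 1, and Bcl2, a survival gene, had 15, with 1 and 3. Il15ra, whose window shares regions with that of Il2ra, had 6, with 2 and 2. Il2, the cytokine gene, had 3 regions, with 1 and 1. These counts stand beside backgrounds of 12.6% for WT and 26.2% for Il2ramut/mut, and none of these regions passed the limma test.

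**Figure D5:**
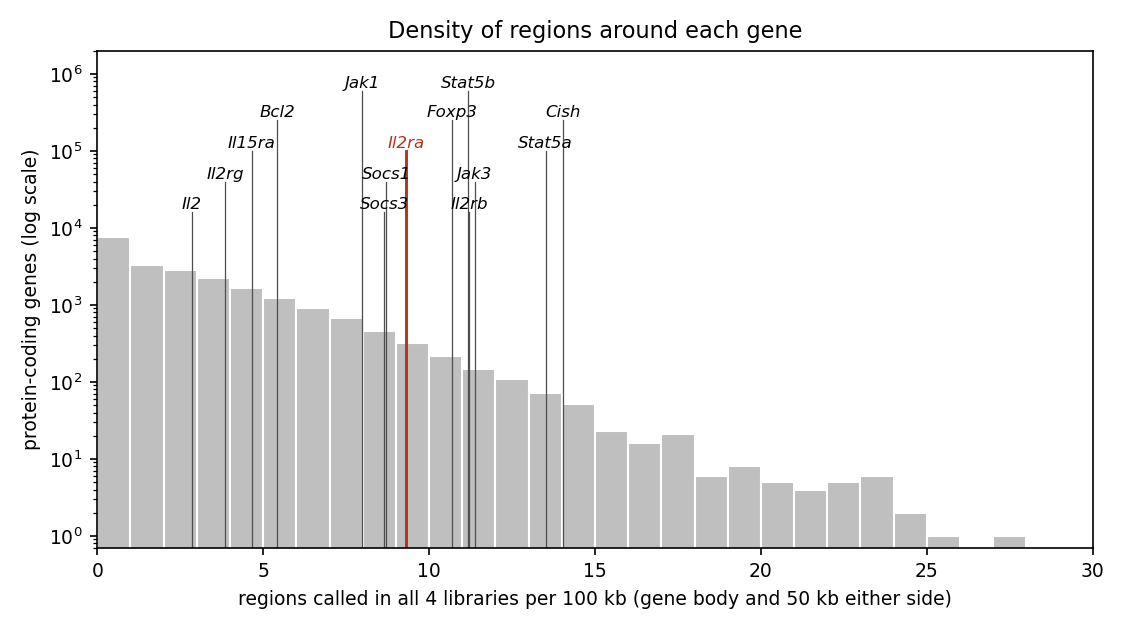
Number of protein-coding genes (y axis, log scale) by the density of regions called in all 4 libraries, per 100 kb of gene body with 50 kb on either side (x axis, cut at 30), with Il2ra in red and the genes of its pathway as lines. Il2ra stands at 9.31 per 100 kb, where the median gene has 2.06, and lies below Il2rb, Jak3, Stat5a, Stat5b, Cish and Foxp3.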

How the data were processed

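ATAC-seq libraries of LN Treg cells were analysed from the deposited peak lists, 1 per library. Per the labels, the submitters' processing notes name Trim Galore 0.3.7, BWA 0.7.13, SAMtools 0.1.19, Picard 1.92, MACS2 2.1.0 and mm10. Per the methods, the authors aligned reads with BWA, removed duplicated and mitochondrial reads, shifted the reads for the transposase and called narrow peaks in each library. The deposited lists hold the authors' fold enrichment at the summit (a ratio), −log10 p, −log10 q, a score of 10 times the −log10 q, and the summit's offset. They hold no read counts or totals, so depth is unknown and no counting interval is given; the number of libraries limits the precision.

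Regions were peaks merged on 1 bp, with the strongest peak of a library as its value. Summit reads were recovered from the fold enrichment, which is (reads + 1)/(background + 1), and 100% came out whole within 0.05. IDR (Gaussian copula mixture, ties broken by a fixed seed) used paired ranks of −log10 p. Its fit was stopped at 400 rounds in both genotypes, before it reached its tolerance. OCRs that shared 1 bp between genotypes were called common. Differences were fitted with limma 3.58.1 in R 4.3.3 on quantile-normalized log2 fold enrichment with a trended prior, over the 38426 regions called in all 4 libraries, two-sided, with Benjamini-Hochberg adjustment at 0.05. This fit leaves out regions that lack a peak in any library. Genes and the longest Il2ra transcript came from GENCODE vM21 basic, and sequences and promoters from RefSeq on GRCm38.p6, the assembly behind mm10; all peaks on 21 chromosomes lay within its ends. Python 3.11.15, numpy 2.4.6, pandas 2.3.3, scipy 1.17.1, pysam 0.24.0 and matplotlib 3.10.9 were used. The IDR, merging and limma steps were tested on simulated data.

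The named items are every merged region of the window, the genes in it, and a fixed list of receptor and pathway genes. The values of 2 genes of the marker lists are not reported here. The members and lists were chosen with earlier results of these data known. Alternatives were other thresholds for peaks and IDR, other merging, ranking, tie and normalization choices, a filter on low values, the replicate number as a block, and leaving out each library. The design text gives 2 mice of each genotype, 1 per library as far as the labels say.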

Additional observations from a re-analysis of the deposited data

How the results depend on the processing

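With 2 libraries per genotype and unknown depth, the tests could separate only large differences, and a region without a peak in a library has no value there. Restricting the window to the gene body gave 19 regions, 8 of them called in all 4 libraries. An IDR threshold of 0.01 gave 2 WT-unique OCRs, and with no IDR step there were 0 WT-unique and 6 Il2ramut/mut-unique. Median centring put 1 region past the limma threshold, the promoter, with a log2 difference of −0.84, and called 142 regions of the genome higher and 176 lower in Il2ramut/mut. In that fit the spread of each region came from the trend over all regions alone. Limiting the fit to regions above the median level called 23 and 28 in the genome and 0 in the window, where limma gave the promoter an adjusted p of 0.0879. The replicate block, with the replicate number as a term, called 0 regions in the window and in the genome. The deviations of same-numbered libraries had a correlation of 0.0109, so no deviation shared by number was seen. This value cannot tell whether same-numbered mice were handled together, and the labels do not say that the numbers pair the mice. Keeping only peaks whose −log10 q was 3 or more left 24 regions, 12 of them in all libraries, and the percentiles of 4 did not overlap, 1 with WT above and 3 with Il2ramut/mut above, against 4 and 2 with all peaks. Counting ranks from the strongest peak, an alternative chosen after seeing the data because the lists differ in length, gave 7, 5 with WT above and 2 with Il2ramut/mut above. The share over all regions of the genome was computed for the main setting only, so neither of these splits has a background beside it.

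Leaving out each library in turn gave 27 to 32 regions, 14 to 18 called in all remaining libraries, 8 to 12 common, 1 to 3 WT-unique and 0 to 3 Il2ramut/mut-unique OCRs, 0 regions past the limma threshold in every case, and 9 to 13 regions with percentiles that did not overlap. Of these last, 10 had WT above and 2 Il2ramut/mut without WT replicate 1, and 4 and 9 without WT replicate 2. With a single library in a genotype, percentiles separate more readily, and no share over all regions was computed for these alternatives. The counts with a library left out therefore cannot be read against those of the main setting. For the OCR counts, the strongest peaks of the library left stood in place of IDR in its genotype, so the definition changed with the libraries. There were 0 Il2ramut/mut-unique OCRs without WT replicate 1 and 3 WT-unique OCRs without Il2ramut/mut replicate 1. Without Il2ramut/mut replicate 2 the 1 WT-unique OCR was the region 21.3 kb downstream in place of that 16.7 kb upstream. Of 121 log2 differences refitted under the 9 alternatives, 112 kept their direction and their side of the threshold and 8 turned. Without 1 library or another, the log2 difference ran from −0.22 to 0.15 at 39.6 kb upstream (0.15 without WT replicate 2), from −0.32 to 0.46 at 23.0 kb upstream (−0.32 without WT replicate 1 and −0.038 without Il2ramut/mut replicate 2) and from −1.16 to 0.42 at 16.7 kb upstream (0.42 without Il2ramut/mut replicate 2). It ran from −0.59 to 0.17 at 8.85 kb downstream (0.17 without WT replicate 2), from −0.033 to 0.17 at 10.8 kb downstream (−0.0036 without WT replicate 1 and −0.033 without Il2ramut/mut replicate 2) and from −0.30 to 0.76 at 19.5 kb downstream (−0.30 without WT replicate 1). The cause was not tested.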

Other observations

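The ratio of the summit reads at the Il2ra promoter to those of the region 10.8 kb downstream of the TSS was 0.854 and 0.763 in WT and 0.446 and 0.380 in Il2ramut/mut. The pair was chosen after its values were seen, so the ratio is given as a description with no test. It uses reads of a single library at a time and does not depend on depth or on the other peaks of a list.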
